A study of Rattus with 6 samples.

Results

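The kinesin motor genes of the rat pituitary cell line RC-4B/C were examined in libraries labelled ASA and libraries labelled DMSO. The members were all genes of the exon table whose symbol began with Kif, with or without a c, followed by a digit. The symbol rule took 31 of the 12801 genes in the table, with 632 of its 118147 exons. They were divided by textbook role into 12 mitotic kinesins, 14 transport kinesins and 4 other kinesins, and Kif28p was left unclassed.

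The series is titled for the effect of aspirin on pituitary adenoma, and ASA is the usual abbreviation of acetylsalicylic acid, or aspirin. The 6 libraries comprised 3 of cells treated with ASA and 3 with DMSO, a common solvent, all from the same line and of poly(A) RNA. The labels give neither dose nor duration, and they do not say whether the libraries came from separate cultures, so p-values measure the spread between these libraries, which may be technical. The second cell line that the series names, GH3, was not analysed here.

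Kinesins are motor proteins that use ATP to move along microtubules or to take microtubule ends apart. Mitotic kinesins build the bipolar spindle, move and align chromosomes and complete cytokinesis, and their transcripts are made mainly in cycling cells as these approach division. Transport kinesins carry vesicles, organelles, mRNAs and ciliary cargo, in dividing and resting cells alike, and in hormone-secreting cells their cargo includes secretory granules.

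The mitotic kinesins were lower in ASA and the transport kinesins as a class were not. Of the 12 mitotic kinesins, 11 fell (limma, Benjamini-Hochberg adjusted p under 0.05), where 4.99% of all 12502 genes tested fell and 6.21% rose. Every ASA library lay below every DMSO library for all 12, against 18.8% of all genes tested. Their median log2 fold change was -2.18, with a range of -2.77 (Kif2c) to -1.72 (Kif18b), beside a median of -0.06 over all genes tested. The class leaves out Kif2a, which like Kif2c takes microtubule ends apart and whose groups overlapped (log2 fold change 0.03). Of 13 transport kinesins tested, limma called 0 in either direction, where 11.2% of all genes were called. Unadjusted p was under 0.05 for 3 of them, and for 3753 of the 12502 genes tested. With voom on recovered reads 0 transport kinesins passed as well. Their median log2 fold change was -0.07 (0.0052 with quantile normalization), with a range of -0.84 (Kif5b) to 1.10 (Kif5a). The medians of the classes differed by -2.11 on the log2 scale. In these bulk samples fewer dividing cells and less RNA per cell cannot be told apart.

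The number of mitotic kinesins that passed was 10 with voom on recovered reads, without Kif11 (adjusted p = 0.0518), and 8 in limma with no variance trend, without Kif11, Kif15 and Kif22. It also depended on single libraries. It was 7 without ASA replicate 1, 8 without ASA replicate 2 and 12 without DMSO replicate 2. It was 0 without ASA replicate 3, without DMSO replicate 1 or without DMSO replicate 3, fits in which limma called 0, 91 and 0 of all genes. In each of those fits all 12 mitotic kinesins had a negative log2 fold change and an unadjusted p under 0.05. Over all genes tested, 2924, 2569 and 2342 had such a p in those fits, in either direction.

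**Figure D1:**
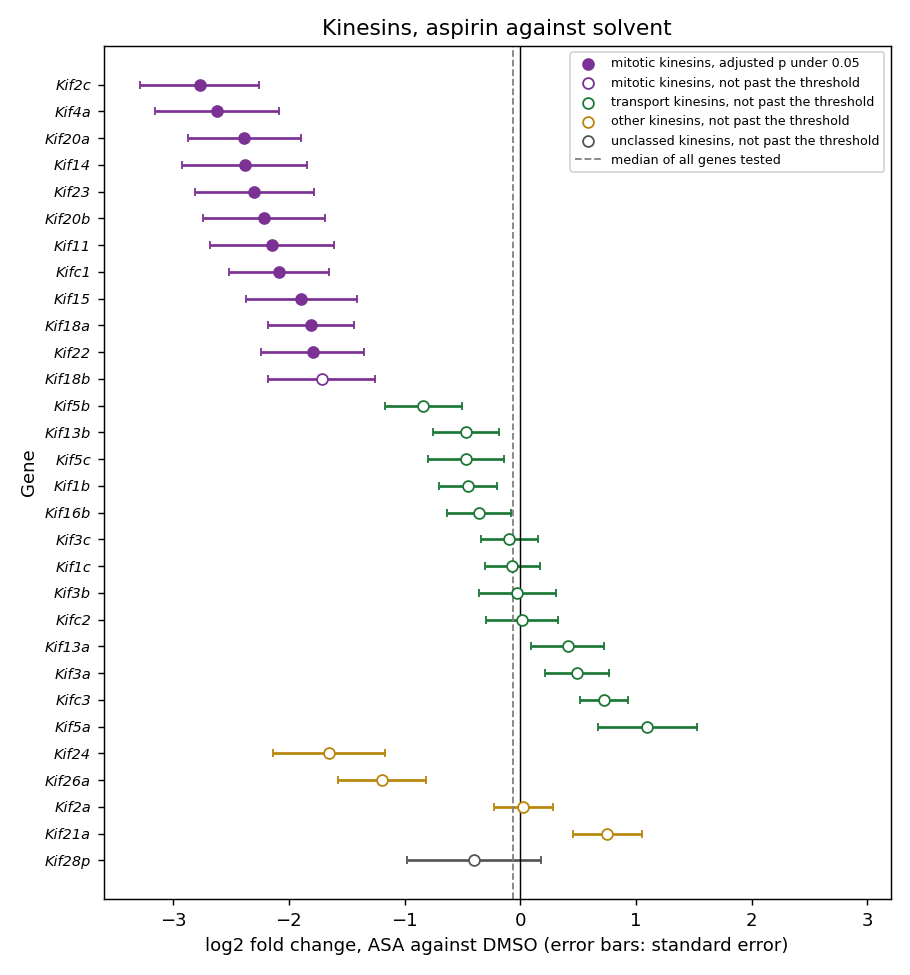
Log2 fold change of ASA against DMSO for each tested kinesin (x axis), with bars of 1 standard error, ordered within each class and coloured by class. The 12 mitotic kinesins lie between -2.77 and -1.72, and the 13 transport kinesins lie between -0.84 and 1.10.

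Depth, evenness of exons and marker levels of the libraries are given beside these values. Reads in the listed exons ranged from 66492445 to 94486062 per library, with the fewest in ASA replicate 2. That library also stood apart in the evenness of its exons: the median absolute deviation of exons from their gene's median change was 0.401 on the log2 scale over all genes, against 0.0540 to 0.0998 in the other libraries. For kinesin exons it was 0.492, against 0.0625 to 0.150. Of the lactotroph and endocrine pituitary markers, 6 of 7 were in the table, Gh1 having no row. Prl was highest in ASA replicate 2 (62101 RPKM) and DMSO replicate 2 (62170 RPKM), and lay between 14037 and 41835 RPKM in the other libraries. In this list 1 marker fell (Pcsk2, limma adjusted p = 0.0232). Of the fibroblast markers 2 of 5 had a row, with summed levels of 2138 to 3279 RPKM in ASA and 1104 to 1164 RPKM in DMSO, nearly all of it decorin (Dcn), while Col1a1, Col1a2 and Pdgfra had none. Of the leukocyte markers 3 of 6 had a row, with summed levels of 61.1 to 246 RPKM in ASA and 25.4 to 34.1 RPKM in DMSO, and Ptprc, Tyrobp and Aif1 had none. Of these 3, Cd68 and Itgax rose and Cd3e fell. Of the gonadotroph, corticotroph and thyrotroph markers 2 of 6 had a row, with sums of at most 4.13 RPKM in any library, and 0 of 4 endothelial markers had one. The part of these differences in the kinesin values was not tested.

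Levels below are RPKM, reads per kilobase of the gene's listed exons per 1000000 reads. Fold changes come from the mean log2(RPKM + 0.1) of each group, so they can differ from the ratio of mean RPKM, and adjusted p-values are limma's with Benjamini-Hochberg adjustment over all genes tested. Positions are those of the listed exons as the table gives them, and the submitters' processing notes name the rat build Rnor_6.0.

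Among the motors that make the spindle bipolar, Kif11 slides antiparallel microtubules apart and is needed to separate the poles. The level of Kif11 (chromosome 1, 256036058 to 256086928) was 6.35, 4.79 and 9.25 RPKM in the ASA libraries and 55.9, 12.6 and 36 RPKM in the DMSO libraries. Kif11 was thus 4.43-fold lower in ASA (log2 fold change -2.15 ± 0.54 SE, adjusted p = 0.0447). Its lowest DMSO library, replicate 2, stood closer to the highest ASA library than to either other DMSO library. Kif15 can share this pole-separating task. Kif15 measured 3.33, 2.06 and 3.83 RPKM in ASA against 17.8, 5.63 and 14.4 RPKM in DMSO, a 3.71-fold difference (adjusted p = 0.0456). Kifc1 is a motor of the opposite direction, with its motor domain at the C terminus, which draws poles together and bundles spindle microtubules. Kifc1 had 11.9, 10.7 and 11.3 RPKM in ASA and 80.5, 22.9 and 60.6 RPKM in DMSO, 4.24-fold lower in ASA (log2 fold change -2.08 ± 0.44 SE, adjusted p = 0.0309). Its ASA libraries were nearly level while the DMSO libraries spread widely. So motors that push poles apart and the motor that draws them together were lower in the same libraries.

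Of the kinesins that act on chromosomes and on microtubule ends, Kif2c had the largest change in the family. Kif2c does not walk but removes tubulin from microtubule ends, chiefly at centromeres, where this corrects faulty attachments. It measured 7.23, 3.263 and 4.87 RPKM in ASA and 56.3, 15.5 and 43.9 RPKM in DMSO (chromosome 5, 136028442 to 136053126). The means were 5.12 ± 1.996 RPKM and 38.6 ± 20.9 RPKM (SD, n = 3 each), a 6.82-fold fall with a log2 fold change of -2.77 ± 0.51 SE (limma adjusted p = 0.0232). Kif18b, a motor that works with Kif2c at the ends of astral microtubules, is the mitotic kinesin that did not pass. Its levels were 7.79, 8.93 and 7.40 RPKM in ASA and 45.5, 12.2 and 33.6 RPKM in DMSO (3.28-fold, log2 fold change -1.72 ± 0.46 SE, adjusted p = 0.0526). The groups did not overlap, and without DMSO replicate 2 Kif18b passed (limma adjusted p = 0.0169, 4.83-fold).

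Kif18a walks to the plus ends of kinetochore microtubules and dampens chromosome oscillation at the metaphase plate. Kif18a stood at 3.87, 5.22 and 5.58 RPKM in ASA and 24.8, 10.2 and 20.1 RPKM in DMSO, 3.51-fold lower in ASA (adjusted p = 0.0295). Kif22 and Kif4a are chromokinesins, which bind chromosome arms. Kif22 was among the most abundant mitotic kinesins, with 31.2, 23.1 and 29.1 RPKM in ASA and 157, 44.8 and 125 RPKM in DMSO (3.47-fold, adjusted p = 0.0432), although 14.3% of its exon values were not whole numbers of reads, and how reads were divided among features is uncertain. Kif4a (chromosome X, 70462100 to 70560548), which also caps the length of midzone microtubules with Prc1, measured 4.07, 2.17 and 4.18 RPKM in ASA. Its DMSO levels were 37.6, 9.25 and 26.4 RPKM, and the difference was 6.14-fold (log2 fold change -2.62 ± 0.54 SE, adjusted p = 0.0295). For Kif18a, Kif22 and Kif4a alike, DMSO replicate 2 was the lowest DMSO library and still lay above every ASA library.

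Of the kinesins of the central spindle and cytokinesis, Kif20a brings Aurora B kinase from chromosomes to the midzone. Its levels were 16.8, 18.6 and 15.3 RPKM in ASA and 166, 37.7 and 111 RPKM in DMSO (chromosome 18, 27424828 to 27432635). The means of Kif20a were 16.9 ± 1.64 and 105 ± 64.2 RPKM (SD, n = 3 each), a 5.22-fold fall with a log2 fold change of -2.38 ± 0.49 SE (adjusted p = 0.0297). Its cargo partner Aurkb also fell, with 16.0, 16.5 and 14.5 RPKM in ASA and 97.9, 26.8 and 73.9 RPKM in DMSO (log2 fold change -1.88 ± 0.44 SE, adjusted p = 0.0396). Kif23 is the motor subunit of centralspindlin, which bundles midzone microtubules and brings Ect2 to the division plane. Kif23 (chromosome 8, 66867840 to 66891843) had 10.3, 5.97 and 11.3 RPKM in ASA and 79.3, 19.5 and 54.9 RPKM in DMSO, a 4.92-fold fall (log2 fold change -2.30 ± 0.52 SE, adjusted p = 0.0355). The other subunit of centralspindlin, Racgap1, measured 65.2, 35.5 and 82.8 RPKM in ASA and 265, 83.5 and 196 RPKM in DMSO. Its groups nearly met at ASA replicate 3 and DMSO replicate 2, and it did not pass (log2 fold change -1.50 ± 0.47 SE, adjusted p = 0.0774).

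Kif20b and Kif14 act late, at the midbody that joins the daughter cells. Kif20b had 3.48, 2.37 and 3.85 RPKM in ASA and 27.6, 6.51 and 19 RPKM in DMSO, and was 4.64-fold lower in ASA (adjusted p = 0.0400). Kif14, which holds citron kinase (Cit) at the midbody, was the least abundant mitotic kinesin, at 1.06, 0.638 and 0.967 RPKM in ASA and 8.80, 2.16 and 6.30 RPKM in DMSO. It was 5.21-fold lower in ASA (log2 fold change -2.38 ± 0.54 SE, adjusted p = 0.0360). Only 8 of its 36 numbered exons were listed, carrying 227, 99 and 197 reads in ASA and 1938, 414 and 1351 reads in DMSO. Cit itself fell by 1.33 on the log2 scale (adjusted p = 0.0197), with 6.70 to 7.25 RPKM in the ASA libraries.

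**Figure D2:**
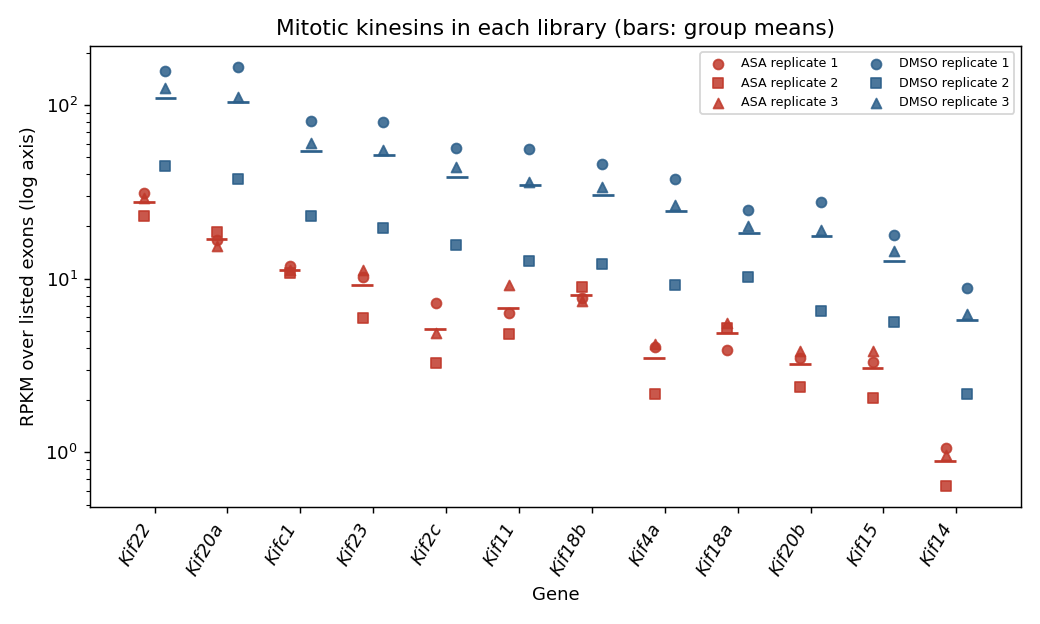
RPKM over the listed exons (log axis) of the 12 mitotic kinesins in each of the 6 libraries, ordered by mean level, with bars at the group means. Every ASA point lies below every DMSO point of the same gene, and DMSO replicate 2 is the lowest DMSO library for all 12, at 0.273 (Kif20a) to 0.455 (Kif18a) of the mean of the other DMSO libraries.

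For the mitotic kinesins the DMSO libraries spread more widely than the ASA libraries. In DMSO replicate 2 their median level relative to the DMSO mean was -1.137 on the log2 scale, whereas DMSO replicates 1 and 3 were at 0.80 and 0.33. The ASA libraries were at -2.10, -2.50 and -1.95. The groups were thus nearest to each other at DMSO replicate 2. DMSO replicate 2 was likewise the lowest DMSO library for other genes of division: the median of 7 proliferation genes was -1.08 in DMSO replicate 2, 0.74 and 0.38 in the other DMSO libraries and -2.45, -2.71 and -2.46 in ASA. What set DMSO replicate 2 apart was not tested. Without it, the fold difference of every called mitotic kinesin was larger, from 4.55 for Kif18a to 10.04 for Kif2c. After Kif2c the largest were 9.21 for Kif4a, 7.99 for Kif20a, 7.78 for Kif14, 7.38 for Kif23, 7.04 for Kif20b and 6.75 for Kif11.

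The lower level was found in every listed exon of the mitotic kinesins. All 242 listed exons of the 12 mitotic kinesins had a lower mean in ASA, against 54.9% of all exons in the table. In 230 of them every ASA library was below every DMSO library, against 16.6% of all exons, and exons of a gene share its libraries and are not replicates. The log2 difference of single exons ranged from -3.70, in Kif15, to -0.76, in Kif22. Of 329 exons of transport kinesins, 198 had a lower mean in ASA, 54 were lower without overlap and 38 higher without overlap, where 17.3% of all exons were higher without overlap.

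Genes that work with the mitotic kinesins were lower in ASA as well. Of 16 spindle partners, 14 fell, against 4.99% of all genes tested, and all 16 were lower without overlap, against 18.8%, with a median log2 fold change of -1.96. Cenpe, a kinesin of the kinetochore whose symbol the rule does not take, had the largest fall among them. It measured 3.95, 1.61 and 2.93 RPKM in ASA and 39.0, 10.4 and 27.4 RPKM in DMSO (log2 fold change -3.02 ± 0.54 SE, adjusted p = 0.0209). Plk1 and Aurka, kinases that regulate spindle motors, fell by 2.66 (adjusted p = 0.0232) and 2.61 (adjusted p = 0.0239) on the log2 scale. Tpx2, which targets Aurora A and Kif15 to the spindle, had 17.9, 11.1 and 18.1 RPKM in ASA and 118, 34.5 and 95.3 RPKM in DMSO (log2 fold change -2.24 ± 0.46 SE, adjusted p = 0.0295). Cenpf, a kinetochore protein of dividing cells, fell by 2.76 (adjusted p = 0.0332). Prc1, which bundles midzone microtubules, had 20.4, 21.9 and 22.7 RPKM in ASA and 157, 35.3 and 105 RPKM in DMSO (log2 fold change -1.94 ± 0.49 SE, adjusted p = 0.0459). Cdca8, of the complex that holds Aurora B, was the other partner that did not pass (log2 fold change -1.56, adjusted p = 0.0507). All 7 proliferation genes in the table fell, with a median of -2.55, and the largest were Ccnb1 at -2.87 and Ccna2 at -2.81. The proliferation marker Mki67 had 7.92, 2.58 and 6.50 RPKM in ASA and 55.7, 16.4 and 44.8 RPKM in DMSO (log2 fold change -2.73 ± 0.56 SE, adjusted p = 0.0301).

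Transport kinesins were the more abundant class in every library but DMSO replicate 1. Their summed level was 563, 313 and 589 RPKM in ASA and 539, 553 and 562 RPKM in DMSO, with ASA replicate 2 below all others. In that library the median over all genes tested was also the lowest, at -0.28 on the log2 scale relative to the DMSO mean. The mitotic sum was 107, 87.8 and 107 RPKM in ASA and 757, 199 and 551 RPKM in DMSO. Mitotic kinesins thus made up 14.5%, 19.7% and 13.5% of summed kinesin RPKM in ASA and 55.4%, 23.98% and 46.6% in DMSO. The groups did not overlap in that share, which is given with no test. In DMSO replicates 1 and 3 the mitotic sum was close to or above the transport sum, and in the ASA libraries it was well below.

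**Figure D3:**
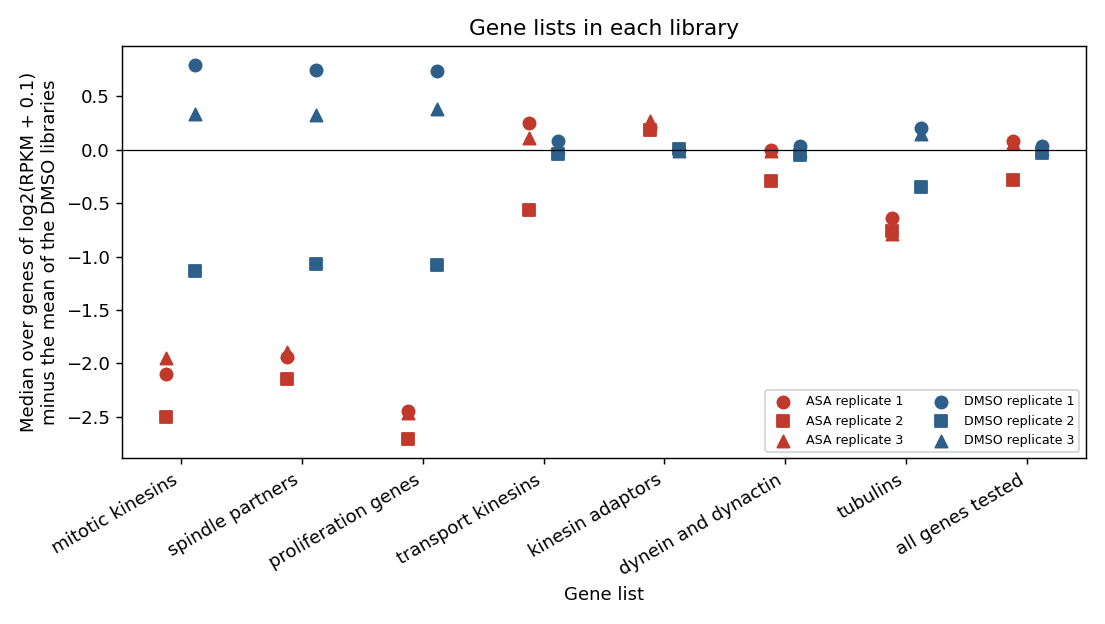
Median log2 level of each class or gene list relative to the DMSO mean of each gene, for the 6 libraries. Mitotic kinesins, spindle partners and proliferation genes lie at or below -1.89 in every ASA library, while transport kinesins lie between -0.57 and 0.25.

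Conventional kinesin, the Kif5 motors, carries mitochondria, vesicles and mRNAs with the help of kinesin light chains. Kif5b, its widely expressed form, measured 96.6, 42.4 and 104 RPKM in ASA and 131, 136 and 137 RPKM in DMSO. The groups did not overlap, and all 25 Kif5b exons were lower without overlap, against 16.6% of all exons. The gene did not pass (log2 fold change -0.84 ± 0.33 SE, adjusted p = 0.140). ASA replicate 2 supplied much of that difference, which was -0.42 without it (adjusted p = 0.0503). Kif5c, a form enriched in neurons, was as abundant, at 104, 57.9 and 147 RPKM in ASA and 115, 142 and 144 RPKM in DMSO. Its groups overlapped (log2 fold change -0.47 ± 0.33 SE, adjusted p = 0.372).

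Kif5a, the third and likewise neuronal form, had the highest positive log2 fold change in the family. It had 15.4, 5.21 and 13.3 RPKM in ASA and 5.39, 4.07 and 4.82 RPKM in DMSO, with means of 11.3 ± 5.39 and 4.76 ± 0.660 RPKM (SD, n = 3 each). The log2 fold change was 1.10 ± 0.43 SE (2.14-fold, adjusted p = 0.133), and ASA replicate 2 alone overlapped DMSO. Without that library it was 1.58 and passed (limma adjusted p = 0.00929). In ASA replicate 2 the listed exons of Kif5a ranged from 0.859 to 33.6 RPKM, while they ranged from 9.43 to 31 RPKM in replicate 1 and from 5.62 to 33.5 RPKM in replicate 3. As a share of the 3 Kif5 genes, a measure chosen after its values were seen and given with no test, Kif5a made up 7.13%, 4.94% and 5.04% in ASA and 2.14%, 1.44% and 1.69% in DMSO. Kif5b made up 44.7%, 40.2% and 39.4% in ASA and 52.3%, 48.2% and 47.9% in DMSO. Kif5c made up 48.2%, 54.8% and 55.6% in ASA and 45.6%, 50.4% and 50.4% in DMSO, with overlap. The Kif5a and Kif5b shares did not overlap between the groups. Within Kif5, each ASA library, ASA replicate 2 included, thus had a higher share of Kif5a and a lower share of Kif5b than every DMSO library.

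The Kif3 motors pair as Kif3a with Kif3b or Kif3c, and with the adaptor Kifap3 they drive transport toward the tip of the cilium. Kif3a measured 38.1, 22 and 41 RPKM in ASA and 26.1, 21.4 and 22.1 RPKM in DMSO (log2 fold change 0.49 ± 0.27 SE, adjusted p = 0.269). ASA replicate 2 lay among the DMSO libraries, and without it the log2 fold change was 0.77 (limma adjusted p = 0.0213). The groups overlapped for its partners Kif3b (log2 fold change -0.03, adjusted p = 0.966) and Kif3c (log2 fold change -0.10, adjusted p = 0.814). As a share of the Kif3 genes, also chosen after its values were seen, Kif3a made up 48.9%, 52.4% and 56.5% in ASA and 44.2%, 42.8% and 42.9% in DMSO. Kifap3 had 46.6, 58.7 and 60.01 RPKM in ASA and 60.6, 66.2 and 55.9 RPKM in DMSO (log2 fold change -0.15, adjusted p = 0.608).

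Kif1b and Kif1c belong to the kinesins that carry synaptic vesicle precursors, dense-core vesicles and mitochondria. Kif1c measured 103, 58.5 and 93.4 RPKM in ASA and 85.1, 89.4 and 85.4 RPKM in DMSO, overlapping (log2 fold change -0.07 ± 0.24 SE, adjusted p = 0.865), with 22% of its exon values not whole reads. Kif1b measured 42.9, 23.4 and 37.1 RPKM in ASA and 45.3, 45.5 and 46.5 RPKM in DMSO (log2 fold change -0.45 ± 0.25 SE, adjusted p = 0.263). The groups of Kif1b did not overlap.

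Kif1b, however, was not of a piece along its listed exons, which ran on chromosome 5 from 165947922 to 166116516 on the minus strand. The 3 blocks described here were drawn after the exon values were seen, so p-values of blocks are descriptive and do not test the division. The 46 listed exons nearest the 5′ end, numbered 24 to 73, had 29, 17.9 and 26.6 RPKM in ASA and 24.7, 22.8 and 24.1 RPKM in DMSO. Their groups overlapped, with a log2 fold change of 0.0049 ± 0.24 SE (limma adjusted p = 0.992). The 12 exons numbered 12 to 23 were several times more abundant, with 98.5, 47.3 and 80.5 RPKM in ASA and 121, 133 and 131 RPKM in DMSO (log2 fold change -0.83 ± 0.27 SE, adjusted p = 0.0881). This block passed without ASA replicate 1 (log2 fold change -1.06, limma adjusted p = 0.0404) and without ASA replicate 2 (-0.53, adjusted p = 0.0437). The 4 exons at the 3′ end, numbered 5 to 8, had 9.74, 3.06 and 5.46 RPKM in ASA and 25.1, 7.10 and 15.9 RPKM in DMSO (log2 fold change -1.36 ± 0.56 SE, adjusted p = 0.150). They passed without ASA replicate 2 and DMSO replicate 2 together (limma adjusted p = 0.0321). Without any single library they did not pass (limma adjusted p from 0.0751 to 0.407). In those 4 exons DMSO replicate 2 was the lowest DMSO library, as for the mitotic kinesins, and lay below ASA replicate 1. The lower gene value of Kif1b in ASA thus lay in the last 16 listed exons. In the RefSeq annotation of the later build GRCr8, the genes Pgd and then Cenps lie next to Kif1b on that chromosome, and neither had a row in the table. Whether the last 16 exons belong to transcripts of Kif1b was not tested.

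**Figure D4:**
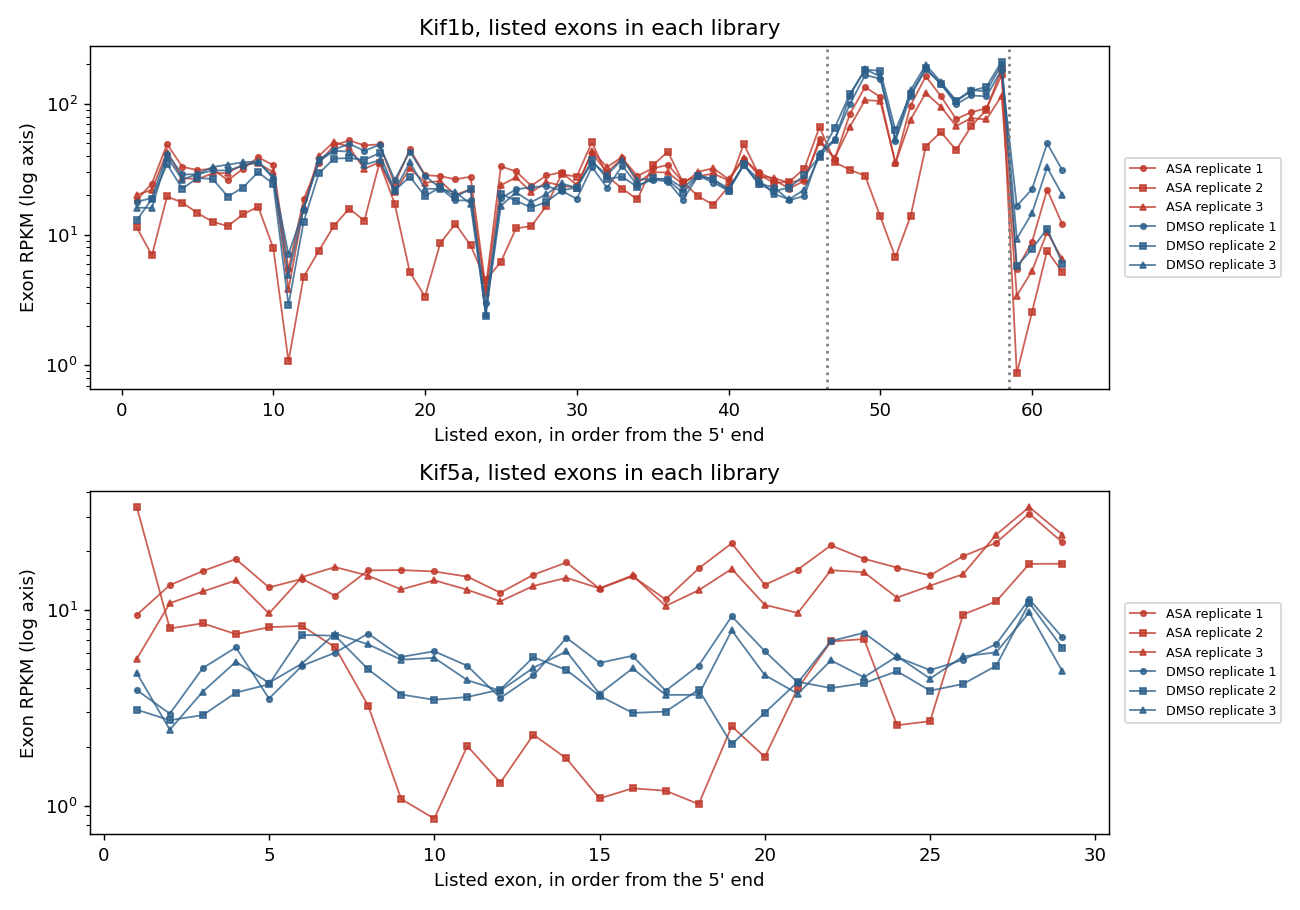
RPKM (log axis) of each listed exon of Kif1b (upper panel) and Kif5a (lower panel) in the 6 libraries, in order from the 5′ end, with dotted lines between the 3 blocks of Kif1b. In Kif1b 10 of the first 46 listed exons are higher in ASA without overlap and 0 lower, while 11 of the next 12 are lower without overlap. Of all exons, 17.3% were higher and 16.6% lower without overlap. The blocks were drawn after these values were seen, so the counts do not test the division. In Kif5a ASA replicate 2 leaves the other ASA libraries over the middle exons.

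Kifc3, a motor with its domain at the C terminus that is known from cell junctions and the Golgi, was the transport kinesin nearest to the threshold. It measured 59.7, 48.9 and 63.8 RPKM in ASA and 42.1, 29.7 and 33 RPKM in DMSO, higher without overlap, which held for 19.9% of all genes tested. The log2 fold change of Kifc3 was 0.72 ± 0.21 SE (1.65-fold, adjusted p = 0.0637), and 0.83 without ASA replicate 2 (limma adjusted p = 0.0252). Without that library Kifc3, Kif5a and Kif3a passed, 3 of the 13 transport kinesins and all of them higher, where 12.8% of all genes tested in that fit were called higher and 8.07% lower. Kifc2 had a log2 fold change of 0.01 (adjusted p = 0.982), with 22.2% of its exon values not whole reads.

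The remaining transport kinesins carry endosomes and signalling receptors or serve the cilium and dendrites. Kif13b, a carrier of membrane cargo, had 22.1, 12 and 22.2 RPKM in ASA and 26.8, 21.9 and 26.8 RPKM in DMSO, with ASA replicates 1 and 3 within the DMSO range (log2 fold change -0.47, adjusted p = 0.313). Kif13a had a log2 fold change of 0.41 (adjusted p = 0.413). Kif16b, a motor of early endosomes, was lower without overlap, at 10.6, 6.35 and 10.3 RPKM in ASA and 11.0, 11.2 and 11.9 RPKM in DMSO, and did not pass (log2 fold change -0.36, adjusted p = 0.410). Kif5b, Kif1b and Kif16b were the 3 of 13 tested transport kinesins lower without overlap, a share near the 18.8% of all genes tested. In all transport kinesins but Kif17 ASA replicate 2 was the lowest ASA library, at 0.363 (Kif5a) to 0.793 (Kifc3) of the mean of the other ASA libraries. That library was also the lowest for the median gene. Relative to the DMSO mean, the median over all genes tested was 0.08, -0.28 and 0.06 on the log2 scale in ASA replicates 1, 2 and 3. For transport kinesins it was 0.25, -0.57 and 0.11. Kif17, a ciliary and dendritic motor with 1 of 15 numbered exons listed and 10 to 30 reads per library, was under the abundance minimum of 0.5 RPKM and was not tested.

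**Figure D5:**
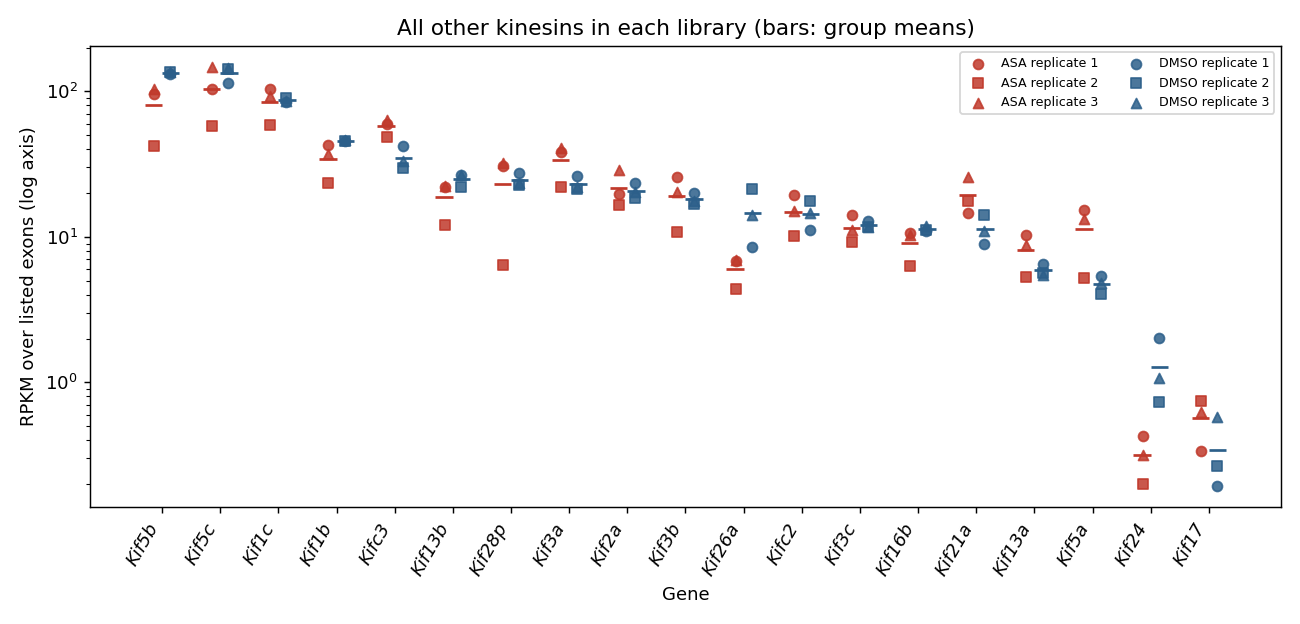
RPKM over the listed exons (log axis) of the transport, other and unclassed kinesins in each of the 6 libraries, with bars at the group means. Kif5c, Kif5b and Kif1c are the most abundant, and the ASA replicate 2 point is the lowest ASA point for 13 of the 14 transport kinesins. The median over all genes tested was also lowest in that library, at -0.28 on the log2 scale relative to the DMSO mean.

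Of the 4 other kinesins limma called 0, where 11.2% of all genes tested were called. Unadjusted p was under 0.05 for 3 of them, and for 3753 of the 12502 genes tested. With voom on recovered reads 1 passed, where 1382 of all genes did. That was Kif24, which removes tubulin from centriolar microtubules and restrains cilium growth in cycling cells. Kif24 measured 0.429, 0.199 and 0.318 RPKM in ASA and 2.01, 0.732 and 1.07 RPKM in DMSO over 3 of 12 numbered exons. Its groups did not overlap, and DMSO replicate 2 was the lowest DMSO library (3.14-fold, log2 fold change -1.65 ± 0.49 SE, adjusted p = 0.0663). Kif26a, which lacks ATPase activity and has a role in enteric neurons, was also lower without overlap. Its levels were 6.79, 4.38 and 6.95 RPKM in ASA and 8.52, 21.3 and 14.1 RPKM in DMSO (log2 fold change -1.19 ± 0.38 SE, adjusted p = 0.0824). For Kif26a DMSO replicate 2 was the highest DMSO library, the opposite of its place for the mitotic kinesins.

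Kif21a, a motor that pauses microtubule growth at the cell cortex, measured 14.5, 17.8 and 25.8 RPKM in ASA and 8.96, 14 and 10.9 RPKM in DMSO. All 32 listed exons of Kif21a had a higher mean in ASA, where 54.9% of all exons had a lower one. Of the 32, 11 were higher without overlap, against 17.3% of all exons, and exons of a gene are not replicates. The gene did not pass (log2 fold change 0.75 ± 0.30 SE, adjusted p = 0.137). Kif2a is a depolymerase of the same kind as Kif2c that also serves neurons and cilia. Kif2a measured 19.7, 16.7 and 28.7 RPKM in ASA and 23.4, 18.6 and 20.5 RPKM in DMSO, overlapping (log2 fold change 0.03, adjusted p = 0.955). The depolymerases Kif2a and Kif2c thus had log2 fold changes of 0.03 and -2.77. Kif2a was placed among the other kinesins, so the counts and medians of the mitotic class do not include it. The unclassed Kif28p was listed by a single exon of 84 bases, with 30.5, 6.45 and 32.3 RPKM in ASA and 27.5, 22.7 and 23.6 RPKM in DMSO (log2 fold change -0.40 ± 0.58 SE, adjusted p = 0.668). ASA replicate 2 was far below the other ASA libraries for Kif28p, and these exceeded every DMSO library.

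The genes that load cargo on kinesins, drive transport the other way or form the track were read beside the motors. Of 19 kinesin adaptors tested, 2 rose, a share near the 6.21% of all genes tested, and the median log2 fold change was 0.20. Mapk8ip3, a scaffold that links kinesin and dynein to vesicles and lysosomes, rose from 23.1, 33.3 and 26.2 RPKM in DMSO to 49.3, 67.3 and 82.7 RPKM in ASA (log2 fold change 1.25 ± 0.25 SE, adjusted p = 0.0279). Plekhm2, which couples lysosomes to conventional kinesin, rose from 21.5, 23.1 and 21.6 RPKM to 37.2, 38.7 and 37.3 RPKM (log2 fold change 0.77 ± 0.17 SE, adjusted p = 0.0353). For both genes every ASA library was above every DMSO library, ASA replicate 2 included. The kinesin light chains Klc1 and Klc2, which bind cargo for the Kif5 motors, had overlapping groups and did not pass (adjusted p = 0.605 at a log2 fold change of 0.24, and adjusted p = 0.823 at -0.14). The Klc1 levels were 104, 83.1 and 160 RPKM in ASA and 72.2, 120 and 96.4 RPKM in DMSO. Those of Klc2 were 87.2, 29.2 and 58.1 RPKM in ASA and 61.2, 56.0 and 57.4 RPKM in DMSO.

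Of 26 genes of dynein and dynactin, the motor toward the cell centre and its activator, 2 rose and 1 fell, close to the 11.2% of all genes tested that were called, with a median of -0.12. Hook2, an adaptor of dynein, rose from 15.1, 21.5 and 17.7 RPKM in DMSO to 41.7, 43.3 and 63.7 RPKM in ASA (log2 fold change 1.44 ± 0.25 SE, adjusted p = 0.02). Dctn1, the large subunit of dynactin, rose by 0.66 ± 0.17 SE (adjusted p = 0.0459), and the light chain Dynll1 fell by 1.24 ± 0.26 SE (adjusted p = 0.0318) on the log2 scale. All 14 tubulins tested had a negative log2 fold change, where 53.5% of all genes tested did, and 13 of 14 did with median centring or quantile normalization. Their median was -0.71. Of these, 2 fell, where 4.99% of all genes tested did: Tuba1a, from 387, 302 and 402 RPKM to 214, 119 and 120 RPKM (log2 fold change -1.31 ± 0.27 SE, adjusted p = 0.0295), and Tubb2b, from 121, 77.4 and 123 RPKM to 57.5, 42.5 and 34.2 RPKM (adjusted p = 0.0322). Some alpha tubulin genes and some beta tubulin genes are near-identical within their group, so the division of reads among those is uncertain.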

How the data were processed

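Total RNA of 6 RC-4B/C libraries was prepared as directional poly(A) libraries, per the labels' protocols. TopHat2 2.1.0, Bowtie2, the trimmers cutadapt 1.14 and Trim Galore 0.4.1, edgeR 3.26.8 and the build Rnor_6.0 are listed in the submitters' processing notes, with neither role nor order. How reads were counted, whether by strand, and on which annotation is not given in the sources at hand. The values that the authors deposited are log2 RPKM of exons, with a column for each library. The deposited values hold a constant of 0.00292 reads per 1000000, which was removed, and 95.7% to 96.8% of values per library were then whole reads within 0.02 read. In every row at least 4 libraries had over 10 reads. A gene with no row is therefore not shown to be silent.

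Reads were summed over listed exons by gene identifier and expressed as RPKM. The test was limma 3.58.1 in R 4.3.3 (two-sided, with a trend of variance on abundance). It compared log2(RPKM + 0.1) of ASA with that of DMSO, with no covariate, over 12502 genes averaging at least 0.5 RPKM, with Benjamini-Hochberg adjustment and a threshold of 0.05, and called 776 genes higher and 624 lower. The procedure was tested on simulated data with spread drawn independently for each gene and library. Those data held no library that shifted many genes together, so they do not bear on calls that depend on single libraries. No replicates of a group agreed within sampling noise.

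The members, classes and gene lists were chosen with earlier results of these data known, so the lists are described by counts and medians, with no test of a list. Mitotic kinesins, kinesins that passed and the 8 most abundant others were to be given in every library, and further members were added because of where their libraries lay. Of each list, called members with the smallest p and a few set genes were named. Of the proliferation genes, the members with the largest falls and Mki67 were named instead. Alternatives covered the pseudocount, abundance minimum, scaling, trend, voom on recovered reads, library weights, the median exon and left-out libraries. The blocks of Kif1b were added after the data were seen. The planned descriptions of promoter motifs and motor positions in proteins were not made. Of the class lists, Kif2b, Kif4b, Kif1a, Kif6, Kif7, Kif9, Kif12, Kif19, Kif21b, Kif25, Kif26b and Kif27 have no row in the table.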

Additional observations from a re-analysis of the deposited data

How the results depend on the processing

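All 12 mitotic kinesins kept a negative log2 fold change and an unadjusted p under 0.05 in every alternative run, and the difference between the class medians lay between -2.80 and -1.68. Over all genes, 2342 to 6720 had an unadjusted p under 0.05 in these runs. The number of mitotic kinesins that fell was 7 with the median exon in place of the sum, and ranged from 0 to 12 when single libraries were left out. Of 12502 genes tested, limma called 1606 with median centring, 1892 with quantile normalization, 1129 with no trend and 1382 with voom. It called 5745 of them with library quality weights and 900 with the median exon. Without ASA replicate 2 and DMSO replicate 2 together it called 3149 of 12517, and without single libraries 0 to 2618. Without ASA replicate 3 or DMSO replicate 3, when 0 were called, 2924 and 2342 genes had an unadjusted p under 0.05. Transport kinesins called numbered 1 with median centring (Kifc3), 2 with quantile normalization (Kifc3 and Kif5a), 5 with library weights, 3 without both of those libraries and 0 to 3 without single libraries. Other kinesins called numbered 1 with no trend, 1 with voom, 3 with library weights and 1 without both. Kif1c changed sign, to 0.0052 with quantile normalization, 0.13 with library weights and 0.20 without both, with a range of -0.23 to 0.18 without single libraries. Kif28p changed sign, to 0.32 with library weights and 0.30 without both, with a range of -0.80 to 0.36 without single libraries. Kif1b was at 0.0049 when taken from exons 24 to 73 alone, an alternative chosen after seeing the data. The causes were not tested, except that the last is a smaller set of exons. No paired analysis was possible because the labels give the groups no shared replicate numbers. The 3 libraries of each group, the spread among the DMSO libraries and the uneven exons of ASA replicate 2 all limit the precision, and their shares in it were not tested. Kif17, Kif24 and Kif14 rest on few listed exons, and Kif17 had at most 30 reads in any library.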
